A study of Homo sapiens with 16 samples.

Results

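The enzymes described here set the supply of deoxynucleotides, the building blocks of DNA. They are 9 named genes of 19777 genes measured: RRM1 and RRM2, TYMS, DUT, DCTD, DTYMK, TK1, DCK and SAMHD1. They were chosen by their place in the pathway and not by their values, though with earlier results of these data known. Each gene is represented by its brightest probe set, judged by the mean of the 16 arrays, and its other probe sets serve as a check. All 9 had a value on every array.

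The arrays profile MIA PaCa-2, an established human pancreatic carcinoma cell line. The cells received PP242, which blocks the kinase mTOR, at 2.5 µM for 12 hours, or the DMSO vehicle for the same time. RNA was taken from the cytosol, and a polysome pool was made from sucrose gradient fractions whose mRNAs carried more than 3 ribosomes. The 4 groups are polysome RNA of PP242-treated cells, polysome RNA of vehicle-treated cells, cytosolic RNA of PP242-treated cells and cytosolic RNA of vehicle-treated cells, with 4 arrays each. The labels do not say whether replicates came from separate cultures, so p-values measure the spread between these samples, which may be technical.

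Ribonucleotide reductase, built from RRM1 and RRM2, turns ribonucleotides into deoxyribonucleotides and is the entry point of the pathway. DUT and DCTD provide dUMP, TYMS methylates it to dTMP, and DTYMK carries dTMP on towards dTTP, while TK1 and DCK recover nucleosides by salvage and SAMHD1 breaks finished dNTPs down. In dividing cells several of these genes, above all RRM2, TYMS and TK1, are known to be most active around S phase, and TYMS, RRM1 and DCK are targets or activators of nucleoside drugs used in pancreatic cancer.

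All values are log2 signals after RMA, the standard Affymetrix background correction, normalization and summary, so a difference of 1 is a change by a factor of 2. A gene was called when the adjusted p of limma, a linear model with moderated variances fitted over all genes, was below 0.05. Array profiles correlated at 0.979 to 0.998 within groups. Cytosolic arrays of PP242-treated cells varied most, with a median SD per gene of 0.245, against 0.122 in cytosolic RNA of vehicle-treated cells, 0.147 in polysome RNA of PP242-treated cells and 0.159 in polysome RNA of vehicle-treated cells. Their replicates 2 and 4 received the lowest array weights, 0.36 and 0.25, and a value without them is given where a cytosolic call ends or a value moves by over 1.5 times. Of 7 markers of carcinoma lines, KRT8, KRT18, KRT19 and VIM had group means above 7, while EPCAM and CDH1 stayed between 2.61 and 3.9. No gene of 5 leukocyte, 4 endothelial and 4 normal pancreas markers had a mean above 7. CDKN2A, listed as deleted in this line, had group means of 5.70 to 6.11. Among 6 fibroblast genes, COL3A1 and COL1A1 had group means of 7.56 and 7.15 in polysome RNA of vehicle-treated cells. COL1A1 had 7.05 in polysome RNA of PP242-treated cells. Of the 6 only 1, COL1A2, had a mean over the 4 groups above 7, and it led their summed level. That sum was 11.2 to 11.9 (log2) in polysome RNA of PP242-treated cells, against 12.0 to 12.7 with vehicle. In cytosolic RNA it was 10.8 to 11.5 in PP242-treated cells, against 11.6 to 12.0 with vehicle. The part of these genes in the results below was not tested.

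PP242 lowered most of the deoxynucleotide enzymes in both RNA pools. On polysomes 7 of the 9 mRNAs fell, among them both reductase subunits, thymidylate synthase and both salvage kinases, and DUT and DCTD were not called. In cytosolic RNA 8 fell and DCTD, the dCMP deaminase, rose. The median effect over the 9 genes was -0.90 in polysome RNA and -1.13 in cytosolic RNA, beside -0.01 and 0.04 over all genes. Of all 19777 genes, 13.4% were called in polysome RNA, 6.55% as lower. In cytosolic RNA 16.4% were called, 7.91% as lower and 8.54% as higher. The groups of 4 arrays did not overlap for the 7 polysome genes that fell, an outcome that 9.86% of all genes had in that direction. In cytosolic RNA they did not overlap for any of the 9 enzymes, beside 17.7% of all genes in either direction and 8.34% as lower. In bulk RNA, fewer cells that express a gene and less RNA per cell cannot be told apart.

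**Figure D1:**
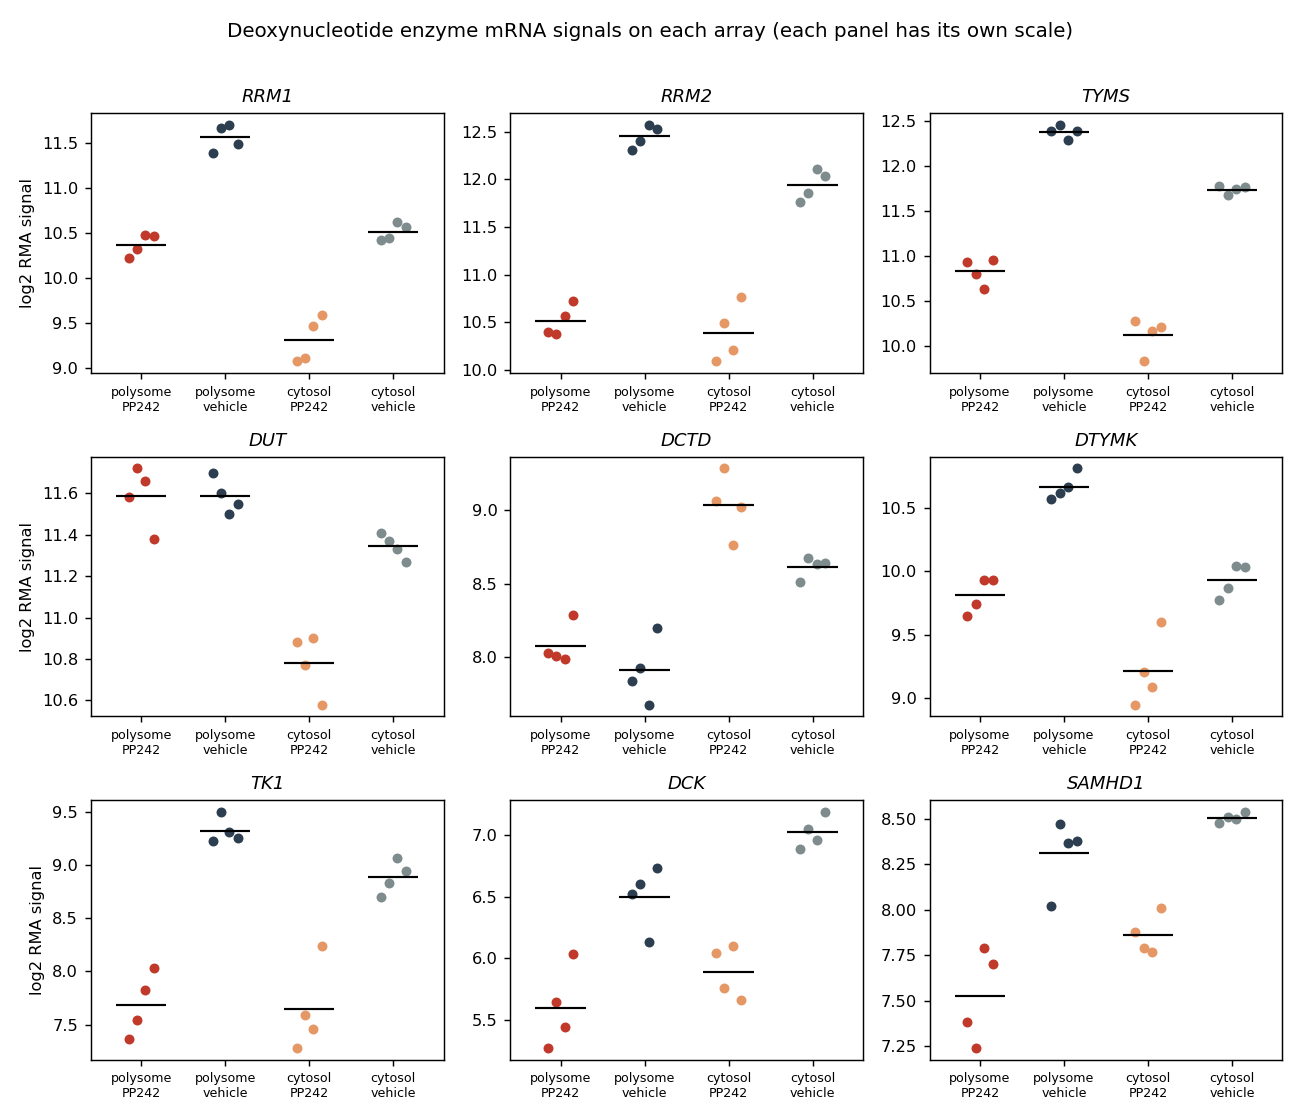
Log2 RMA signal of each enzyme on each of the 16 arrays, with the group mean as a line; each panel has its own vertical scale. The PP242 points lie wholly below the vehicle points in both pools for RRM1, RRM2, TYMS, DTYMK, TK1, DCK and SAMHD1; for DUT they do so in cytosolic RNA only, and for DCTD the cytosolic PP242 points lie above.

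The stretch of 200 bases before an annotated transcript start was read for these genes from the RefSeq promoter table on GRCh38.p14, where all 9 genes have an entry, with 15 start sites between them. It was searched on both strands for 4 short motifs that are known from cell-cycle and core promoters. The E2F-type motif was any of TTTGGCGC, TTTCGCGC, TTTGCCGC, TTTCCCGC and the shorter GCGGGAA, which can overlap the reverse of the longer forms. The CCAAT box was CCAAT, the CHR-type motif was TTTGAA and the TATA-type motif was TATAAA. Of 34943 promoters of the same length, 5.63% held an E2F-type motif, 28.1% a CCAAT box, 10.3% a CHR-type motif and 8.61% a TATA-type motif. Counted by gene, over any of its starts, 4 of the 9 enzymes held an E2F-type motif (TYMS, DUT, TK1 and DCK), beside 6.85% of 27167 genes, and 5 held a CCAAT box (RRM1, RRM2, DTYMK, TK1 and SAMHD1), beside 32.7%. A CHR-type motif stood before RRM1 and DUT, beside 12.6% of genes, and a TATA-type motif before TK1, beside 10.6%. Before DCTD none of these letters were found at either start. A match is a description of the letters and no evidence that a factor binds there.

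The 6 stretches below are shown because they contrast 5 enzymes whose mRNA fell with DCTD, whose mRNA rose in cytosolic RNA. Capitals mark the motif matches, and each stretch runs 5′ to 3′ on the strand of its gene.
RRM1, chr11:4094485-4094684, plus strand: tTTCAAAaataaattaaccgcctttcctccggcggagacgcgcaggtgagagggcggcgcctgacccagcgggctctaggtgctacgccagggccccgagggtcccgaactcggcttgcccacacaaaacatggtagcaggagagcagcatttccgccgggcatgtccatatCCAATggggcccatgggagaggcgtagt
TYMS, chr18:657453-657652, plus strand: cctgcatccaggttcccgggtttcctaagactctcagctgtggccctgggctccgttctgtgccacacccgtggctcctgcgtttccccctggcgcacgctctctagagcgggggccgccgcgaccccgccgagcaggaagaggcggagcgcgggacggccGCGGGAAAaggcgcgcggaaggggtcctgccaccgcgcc
DTYMK, chr2:241686816-241687015, minus strand: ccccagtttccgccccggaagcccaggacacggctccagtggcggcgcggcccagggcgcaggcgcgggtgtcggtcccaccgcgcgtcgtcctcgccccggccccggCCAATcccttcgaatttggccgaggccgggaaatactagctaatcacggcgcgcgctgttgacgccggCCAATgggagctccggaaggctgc
DCK, chr4:70993449-70993648, plus strand: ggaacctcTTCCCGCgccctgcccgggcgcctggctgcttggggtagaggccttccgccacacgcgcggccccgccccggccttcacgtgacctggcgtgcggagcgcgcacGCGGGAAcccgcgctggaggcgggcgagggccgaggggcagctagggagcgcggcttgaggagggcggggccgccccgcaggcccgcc
SAMHD1, chr20:36951709-36951908, minus strand: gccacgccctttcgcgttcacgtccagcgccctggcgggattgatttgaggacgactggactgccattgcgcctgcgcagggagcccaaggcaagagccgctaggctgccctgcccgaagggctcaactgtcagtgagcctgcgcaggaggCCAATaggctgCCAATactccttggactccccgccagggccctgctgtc
DCTD, chr4:182917612-182917811, minus strand: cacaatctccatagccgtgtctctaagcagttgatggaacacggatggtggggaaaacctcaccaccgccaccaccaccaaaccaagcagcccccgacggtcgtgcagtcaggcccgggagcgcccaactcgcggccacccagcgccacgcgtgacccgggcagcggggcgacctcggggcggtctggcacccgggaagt
In TYMS an overlapping pair of E2F-type matches begins 39 bases before the start. DCK has E2F-type matches 192 and 88 bases before its start. RRM1, DTYMK and SAMHD1 share the CCAAT box within 50 bases of the start, at 28, 24 and 38 bases, and DTYMK and SAMHD1 hold another at 92 and 49 bases. RRM2, whose start lies inside a longer annotated transcript and is not printed, has 3 CCAAT boxes, beginning 123, 93 and 66 bases before the start. The annotated first base of RRM1 opens a run of 5 pyrimidines that starts with C, the form of a TOP mRNA start, and a second start of DCTD opens a run of 7. Such a run of 5 or more was at 4.06% of starts.

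By brightest probe sets, RRM2, the small subunit of ribonucleotide reductase that holds its radical, had the largest polysome loss among the enzymes. Another TYMS probe set, with a mean of 9.03, gave a larger loss (-2.04, limma adjusted p = 1.23e-06 over all probe sets). The RRM2 signal in polysome RNA was 10.40, 10.38, 10.57 and 10.72 with PP242, against 12.31, 12.40, 12.57 and 12.53 with vehicle. In cytosolic RNA it was 10.09, 10.49, 10.21 and 10.77 with PP242, against 11.76, 11.86, 12.11 and 12.04 with vehicle. Every treated array lay more than 0.9 below every vehicle array of its pool. The effect was -1.94 ± 0.14 in polysome RNA (SE, adjusted p = 3.11e-08), a level 3.82-fold lower that ranked 20 from the lowest of 19777 genes. It was -1.55 ± 0.14 in cytosolic RNA (adjusted p = 3.16e-07), 2.93-fold lower and ranked 87.

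RRM1, the large subunit with the catalytic site, fell less than RRM2 on polysomes. Its polysome signal was 10.22, 10.32, 10.48 and 10.46 with PP242, against 11.39, 11.67, 11.70 and 11.49 with vehicle. The cytosolic signal was 9.07, 9.11, 9.46 and 9.59 with PP242, against 10.42, 10.44, 10.62 and 10.57 with vehicle. The loss was alike in size in both pools, -1.19 ± 0.13 in polysome RNA (adjusted p = 2.42e-06) and -1.21 ± 0.13 in cytosolic RNA (adjusted p = 2.32e-06). RRM2B, the small subunit known to serve outside S phase and after DNA damage, averaged 5.88 ± 0.09 with PP242 and 6.01 ± 0.21 with vehicle on polysomes (SD, n = 4 each). In cytosolic RNA it averaged 6.44 ± 0.21 with PP242 and 6.62 ± 0.08 with vehicle, and neither difference was called (adjusted p = 0.619 and 0.361, limma).

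Thymidylate synthase, TYMS, makes dTMP from dUMP and is the target of fluoropyrimidine drugs. On polysomes its signal was 10.93, 10.80, 10.63 and 10.95 with PP242, against 12.38, 12.45, 12.29 and 12.38 with vehicle. In the cytosol it was 10.28, 9.83, 10.17 and 10.21 with PP242, against 11.77, 11.67, 11.74 and 11.76 with vehicle. No groups overlapped, and vehicle arrays spread by less than 0.2. TYMS fell by 1.55 ± 0.11 in polysome RNA (adjusted p = 2.77e-08) and fell by 1.61 ± 0.11 in cytosolic RNA (adjusted p = 1.36e-08), which are 2.92-fold and 3.06-fold. Its cytosolic effect ranked 73 from the lowest of all genes. That of RRM2 was larger in its other probe set, at -2.12, and without the cytosolic PP242 replicates 2 and 4, at -1.79 against -1.51 for TYMS.

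DTYMK, the kinase that phosphorylates dTMP, fell moderately. Its polysome signal was 9.65, 9.74, 9.93 and 9.93 with PP242, against 10.57, 10.62, 10.66 and 10.81 with vehicle. The cytosolic signal was 8.95, 9.21, 9.09 and 9.60 with PP242, against 9.77, 9.87, 10.04 and 10.03 with vehicle. Replicate 4 of the cytosolic PP242 arrays stood highest of its group but below all vehicle arrays. The effects were -0.85 ± 0.13 on polysomes (adjusted p = 0.000157) and -0.72 ± 0.13 in the cytosol (adjusted p = 0.00082). With the mean of its 5 probe sets in place of the brightest, the polysome effect was -0.32 and not called (adjusted p = 0.0993). That mean takes in 2 dim sets, with means of 3.24 and 3.98, which gave 0.75 and 0.05. Of the 3 brighter sets, the 1 with a mean of 7.35 gave -0.49 and was not called (limma adjusted p = 0.174 over all probe sets). The others gave -0.85 and -1.08.

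DUT, the dUTPase that keeps uracil out of DNA, fell in cytosolic RNA and was not called on polysomes. On polysomes its signal was 11.58, 11.72, 11.66 and 11.38 with PP242, against 11.70, 11.60, 11.50 and 11.55 with vehicle. Treated and vehicle arrays overlapped, and the effect was 0.00 ± 0.10 with a 95% interval of -0.22 to 0.21 (adjusted p = 0.995). In the cytosol it was 10.88, 10.77, 10.90 and 10.58 with PP242, against 11.41, 11.37, 11.33 and 11.27 with vehicle. There every treated array was below every vehicle array, and the effect was -0.56 ± 0.10 (adjusted p = 0.000751).

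The result for DUT on polysomes depended on the probe set. The brightest, whose name ends in x_at, gave the values above, and the next brightest gave a polysome effect of -0.08 (adjusted p = 0.818 over all probe sets). The dimmest of the 3, with a mean of 6.71, read 5.88, 6.08, 5.48 and 5.96 on polysomes with PP242, against 6.86, 6.81, 6.84 and 6.67 with vehicle, without overlap. Its effect was -0.95 ± 0.13 (adjusted p = 7.08e-05) in polysome RNA and -0.99 ± 0.13 (adjusted p = 4.23e-05) in cytosolic RNA. In cytosolic RNA the next brightest gave -0.38 (adjusted p = 0.0558). With the mean of the 3 probe sets, DUT fell by 0.34 on polysomes (adjusted p = 0.0195). The tables used do not annotate which transcripts each probe set detects. The suffix x_at, which also marks the probe sets used for DCTD and SAMHD1, stands for probes that can bind related transcripts.

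DCTD, which deaminates dCMP to dUMP, was the only enzyme of the 9 called higher with PP242. In cytosolic RNA its signal was 9.06, 9.28, 8.76 and 9.02 with PP242, against 8.51, 8.67, 8.63 and 8.64 with vehicle. The effect was 0.42 ± 0.13 (adjusted p = 0.0345), and the lowest treated array exceeded the highest vehicle array by less than 0.1. The call was lost without the cytosolic PP242 replicates 2 and 4 (0.30, adjusted p = 0.254), under array weights (adjusted p = 0.0627), in a fit of the 8 cytosolic arrays alone (adjusted p = 0.0728), and without replicate number 1 (adjusted p = 0.168), 2 (0.212) or 4 (0.0874). Polysome RNA gave 8.03, 8.01, 7.99 and 8.29 with PP242, against 7.84, 7.93, 7.68 and 8.20 with vehicle. These groups overlapped, with a difference of 0.17 ± 0.13 (adjusted p = 0.515).

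TK1, the cytosolic thymidine kinase of S-phase cells, lost the most after RRM2 on polysomes when brightest probe sets were compared. Its polysome signal was 7.36, 7.54, 7.82 and 8.03 with PP242, against 9.22, 9.50, 9.31 and 9.25 with vehicle. The cytosolic signal was 7.28, 7.59, 7.46 and 8.24 with PP242, against 8.70, 8.83, 9.06 and 8.94 with vehicle. Replicate 4 was the highest treated array in each pool. TK1 fell by 1.63 ± 0.18 on polysomes (adjusted p = 3.86e-06), 3.10-fold, and fell by 1.24 ± 0.18 in the cytosol (adjusted p = 7.99e-05), 2.36-fold. Without the cytosolic PP242 replicates 2 and 4 the cytosolic effect was -1.51 (adjusted p = 1.68e-05).

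DCK, the deoxycytidine kinase that also activates gemcitabine, had 1 probe set on the array. On polysomes it read 5.27, 5.64, 5.44 and 6.03 with PP242, against 6.52, 6.60, 6.13 and 6.73 with vehicle. In the cytosol it read 6.04, 5.76, 6.10 and 5.66 with PP242, against 6.89, 7.05, 6.96 and 7.19 with vehicle. The polysome groups came close to each other without overlap, and the cytosolic groups were well apart. DCK fell by 0.90 ± 0.16 on polysomes (adjusted p = 0.000712) and fell by 1.13 ± 0.16 in the cytosol (adjusted p = 7.25e-05).

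SAMHD1, the dNTP hydrolase, fell along with the enzymes that make dNTPs. Its polysome signal was 7.38, 7.24, 7.79 and 7.70 with PP242, against 8.02, 8.47, 8.37 and 8.38 with vehicle. The cytosolic signal was 7.88, 7.79, 7.77 and 8.01 with PP242, against 8.48, 8.51, 8.50 and 8.54 with vehicle. The cytosolic vehicle arrays agreed to within 0.06 and all treated arrays lay below them. The effects were -0.78 ± 0.13 on polysomes (adjusted p = 0.000381) and -0.65 ± 0.13 in the cytosol (adjusted p = 0.00205).

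The 9 enzymes have 27 probe sets that list a sole gene, of which 22 had a mean above 5. In polysome RNA 16 of those 22 were called lower and 0 higher when every probe set was fitted on its own, and in cytosolic RNA 17 were called lower and 2 higher, both of DCTD. Over all 41091 probe sets, dim ones included, 5.29% were called lower in polysome RNA and 6.95% in cytosolic RNA. That share is not limited to a mean above 5. When only the 12350 genes with a mean above 5 were fitted, 1440 were called lower in polysome RNA and 1623 in cytosolic RNA. The 2 probe sets each of RRM1, RRM2 and TK1 all fell in both pools, with effects of -1.21 to -1.19 on polysomes for RRM1, -1.95 to -1.94 for RRM2 and -1.73 to -1.63 for TK1. The 2 TYMS probe sets with a mean above 5 gave -2.04 to -1.55 on polysomes. Of the 4 brighter SAMHD1 probe sets, 4 were called lower on polysomes and 3 in the cytosol. Of the 5 probe sets with a mean of 5 or less, that of DTYMK with a mean of 3.24 was called higher on polysomes by 0.75 (adjusted p = 0.0154).

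**Figure D2:**
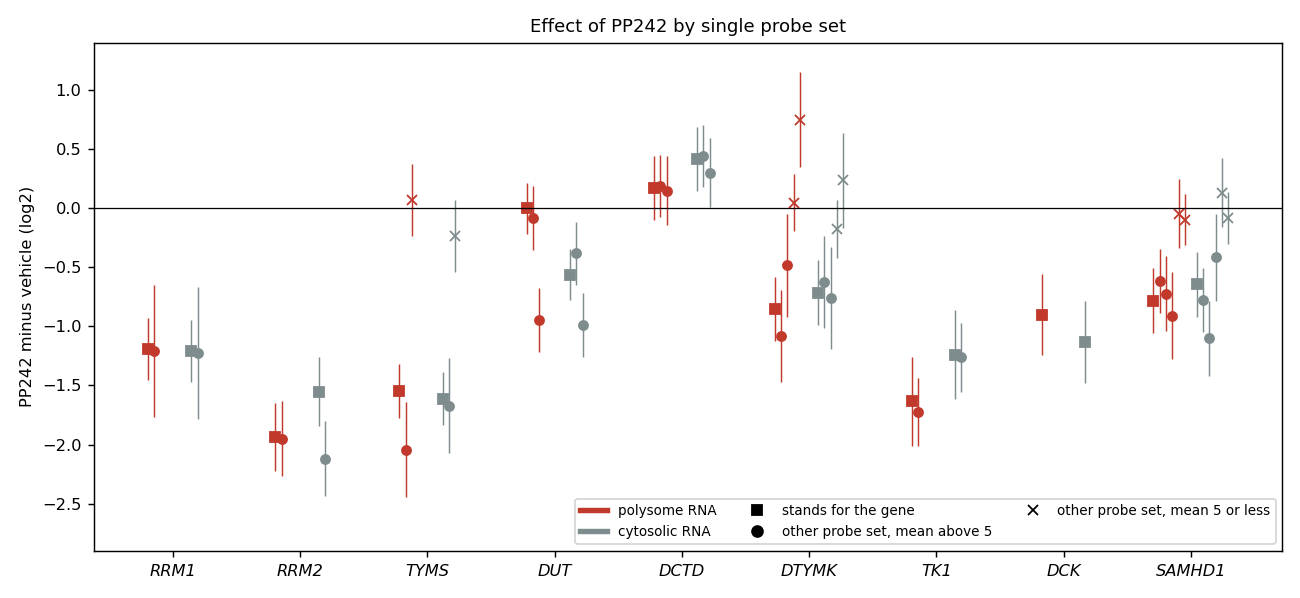
Effect of PP242 (log2, PP242 minus vehicle) for each probe set of each enzyme, with 95% limma intervals; red is polysome RNA and grey cytosolic RNA, squares stand for the gene, circles are other probe sets with a mean above 5, and crosses are those with a mean of 5 or less. The DUT squares and circles differ among themselves, whereas those of RRM1 and TK1 lie close together.

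Whether PP242 moved an enzyme's mRNA off polysomes beyond its cytosolic change was asked with the difference of the 2 effects. None of the 9 passed: 0% of the 19777 genes were called by limma in this comparison, with 1750 at an unadjusted p under 0.05, and a regression of polysome on cytosolic values called 6 genes, or 0.0303%. Blocking on the replicate number also called 0 genes, with 2942 at an unadjusted p under 0.05. RRM1 and TYMS had differences near 0, at 0.01 ± 0.18 and 0.07 ± 0.15, and at 0.06 and -0.04 without the cytosolic PP242 replicates 2 and 4. For RRM2 the difference was -0.38 ± 0.19 (95% interval -0.79 to 0.02) and for TK1 it was -0.39 ± 0.25 (-0.92 to 0.14). Without the cytosolic PP242 replicates 2 and 4 these were -0.14 and -0.12, and the other RRM2 probe set gave 0.17 on all arrays. DUT had 0.56 ± 0.14 (0.26 to 0.86), an unadjusted p of 0.00102 and an adjusted p of 0.558. The DUT probe sets gave 0.56, 0.30 and 0.04 for this difference. Of the remaining members, DCTD had -0.25 ± 0.18, DTYMK -0.14 ± 0.18, SAMHD1 -0.14 ± 0.19 and DCK 0.23 ± 0.23. Without those replicates DCTD had -0.13, DTYMK 0.06, SAMHD1 -0.10 and DCK 0.05.

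**Figure D3:**
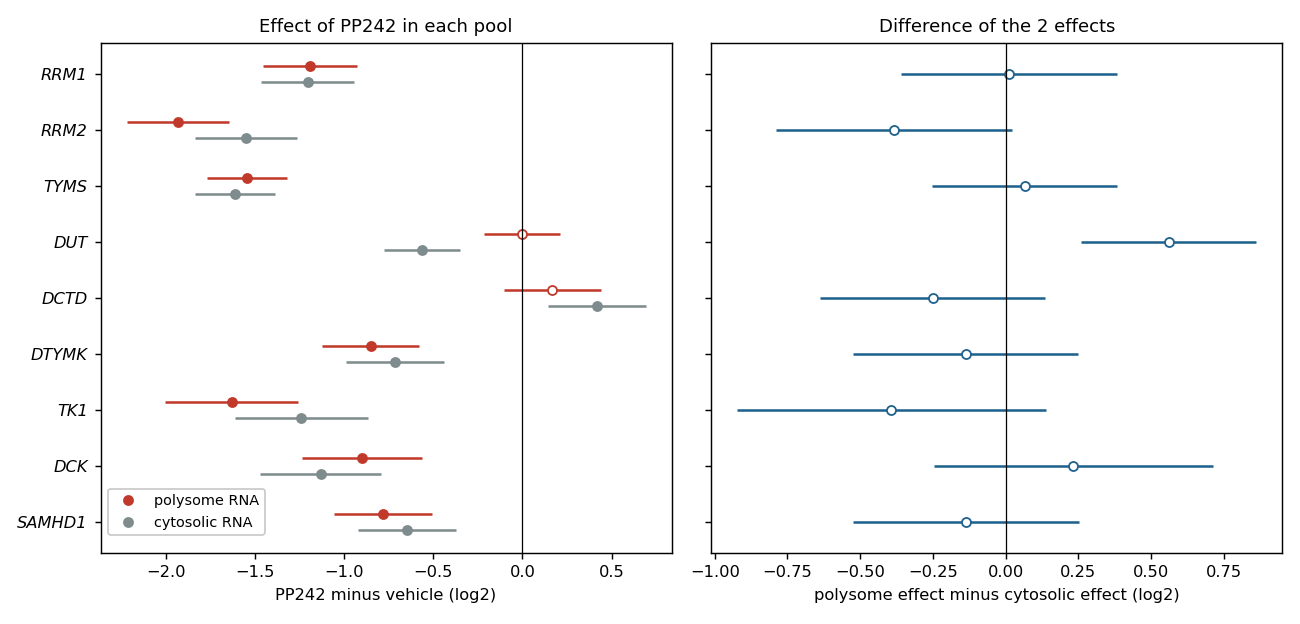
Left, the effect of PP242 (log2, PP242 minus vehicle) on each enzyme in polysome RNA (red) and cytosolic RNA (grey); right, the polysome effect minus the cytosolic effect. Bars are 95% limma intervals and filled points have an adjusted p below 0.05. In the right panel all points are open, and DUT is the 1 enzyme whose interval lies wholly above 0.

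Enzymes that work as partners or rivals were compared by the difference of their log2 signals on each array, with exact permutation tests of 4 treated against 4 vehicle arrays, two-sided. The smallest p that this design allows is 0.0286, and p-values were adjusted over 12 tests, after which 7 were below 0.05. All 7 had that smallest p and so share the adjusted value of 0.049. Those that involve RRM2 are not separate evidence. RRM2 fell further than RRM1 on polysomes, by -0.74 (exact adjusted p = 0.049), and the cytosolic difference of -0.35 was not called (exact adjusted p = 0.0857). Without replicates 2 and 4 of the cytosolic PP242 arrays that difference was -0.55. The effect of RRM2 differed from that of RRM2B by -1.81 on polysomes and -1.38 in the cytosol (exact adjusted p = 0.049 in each pool). The same held against SAMHD1, by -1.15 on polysomes and -0.91 in the cytosol (exact adjusted p = 0.049 in each pool). RRM2B was dim, with group means of 5.88 to 6.62, beside 5.70 to 6.11 for CDKN2A, listed as deleted in this line. Whether so low a signal hid a fall of RRM2B was not tested.

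Of the salvage kinases, TK1 fell further than DCK on polysomes, by -0.73 (exact adjusted p = 0.049). DCK read 5.27 to 6.03 there with PP242, near the level of CDKN2A, and whether this hid a larger fall was not tested. In the cytosol the difference of TK1 and DCK was -0.11 (exact adjusted p = 0.829). It was -0.56 without replicates 2 and 4 of the cytosolic PP242 arrays. DUT and DCTD, which both feed dUMP to TYMS, parted in the cytosol by -0.98 (exact adjusted p = 0.049) and differed by -0.17 on polysomes (exact adjusted p = 0.583). TYMS and TK1, the synthesis and salvage routes to dTMP, differed by 0.09 on polysomes (exact adjusted p = 0.779) and by -0.37 in the cytosol (exact adjusted p = 0.305), or 0.00 there without those replicates. The TYMS and TK1 comparison on polysomes depended on the probe set. The other TYMS set with a mean above 5 gave -2.04 there, beside -1.73 and -1.63 for the TK1 sets. With the mean of each gene's probe sets the difference was called, with TYMS falling less, but that mean takes in a TYMS set with a mean of 3.59. When same-numbered arrays were paired instead, exact sign flips of 4 pairs cannot go below p = 0.125, and 0 of the 12 tests were called.

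**Figure D4:**
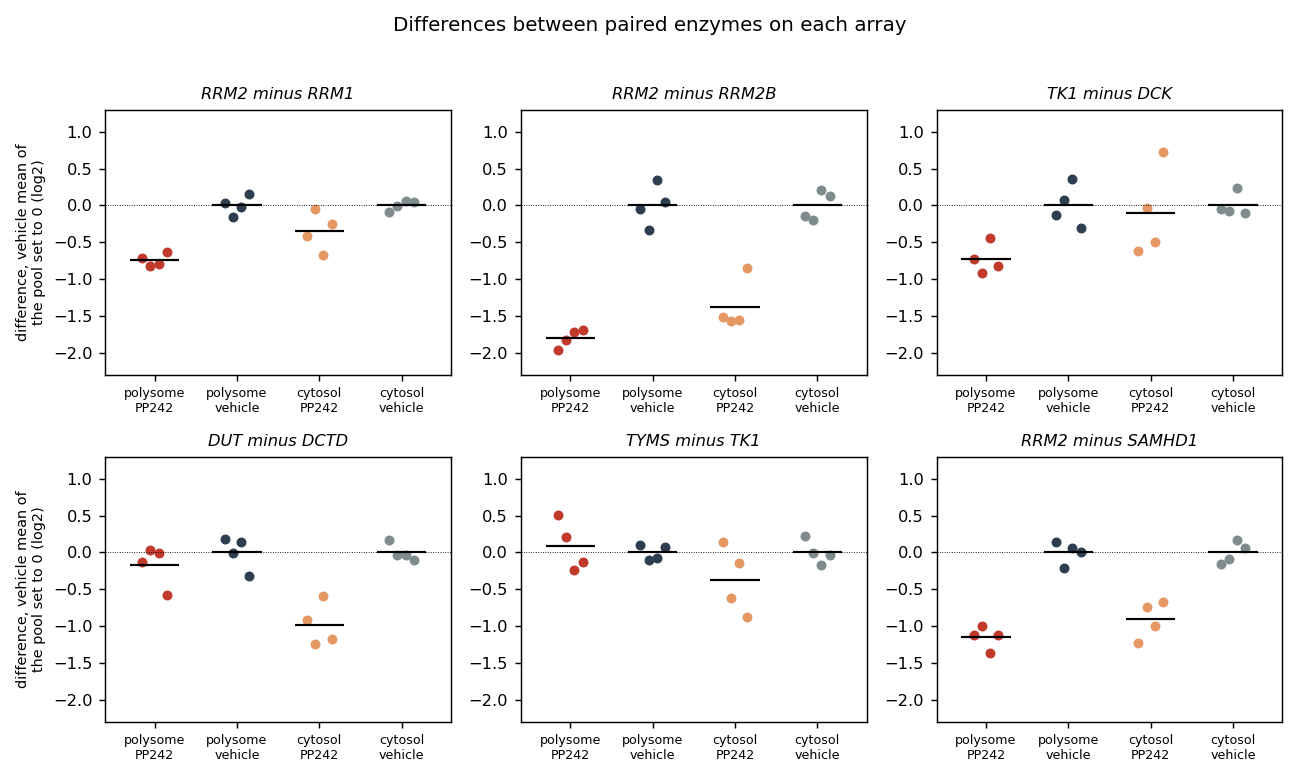
Difference of the log2 signals of paired enzymes on each array, with the mean of the vehicle arrays of the same pool set to 0 and group means as lines. The PP242 points of RRM2 minus RRM1 on polysomes lie wholly below the vehicle points, while those of TYMS minus TK1 overlap them in both pools.

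The signals in polysome over cytosolic RNA, each array centred on its own median, describe how strongly an mRNA was found on polysomes. In PP242-treated cells 5 enzymes were higher on polysomes, DCTD was lower and 3 were not called, where 52.2% of all genes were called, 34.7% as higher and 17.5% as lower. In vehicle-treated cells 6 were higher, DCTD was lower and 2 were not called, where 52.3% were called, 36.9% as higher and 15.4% as lower. RRM1 was highest in each, at 1.38 ± 0.13 with PP242 and 1.38 ± 0.13 with vehicle. For RRM2 the ratio was 0.45 ± 0.14 with PP242 and 0.84 ± 0.14 with vehicle, and for DUT it was 1.12 ± 0.10 with PP242 and 0.57 ± 0.10 with vehicle. These levels rest on the scale and the probe set. The pools appear to have been normalized apart, and after quantile normalization of all 16 arrays 3 of the 9 were called in vehicle-treated cells. Of the 19777 genes, 8765 were called in that setting, 4739 as higher and 4026 as lower. The other RRM1 probe set gave -0.67 with either treatment.

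Around the 9 enzymes, 35 of 40 further pathway genes in 5 lists had a value. In polysome RNA 3 of them rose and 9 fell, and in cytosolic RNA 7 rose and 6 fell. Of all genes, 6.81% rose and 6.55% fell in polysome RNA, and 8.54% rose and 7.91% fell in cytosolic RNA. Without the cytosolic PP242 replicates 2 and 4 the cytosolic balance turned, with 2 called higher and 8 called lower. The balance over all genes turned the same way, from 1689 higher and 1564 lower to 672 higher and 1304 lower. Blocking on the replicate number, 19 of the 35 were called in polysome RNA, where 20.3% of all genes were. Their median effects were -0.14 on polysomes and -0.04 in the cytosol, beside -0.01 and 0.04 over all genes, and 0 were called for the difference of the effects (unadjusted counts over all genes stand above). The remaining 5 were not analysed here.

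Among 6 partners of the reductase, TXNRD1, the cytosolic thioredoxin reductase, rose. It read 10.38, 10.48, 10.90 and 11.32 on polysomes with PP242, against 9.58, 9.94, 10.17 and 10.27 with vehicle, an effect of 0.78 ± 0.19 (adjusted p = 0.00877). The cytosolic effect was 0.84 ± 0.19 (adjusted p = 0.00476), and 0.76 (adjusted p = 0.051) without the cytosolic PP242 replicates 2 and 4. TXN, the thioredoxin that hands electrons to the reductase, fell by 0.52 ± 0.16 in cytosolic RNA (adjusted p = 0.0321), and its polysome effect was -0.15 ± 0.16. Without those replicates the cytosolic effect was -0.30 (adjusted p = 0.38). Of 4 genes of the thymidylate folate cycle, SHMT2 and MTHFD1, which load and convert one-carbon folates, were lower on polysomes. SHMT2 fell by 0.57 ± 0.18 (adjusted p = 0.043) and MTHFD1 fell by 0.47 ± 0.12 (adjusted p = 0.0159). Neither was called in the cytosol on all arrays (MTHFD1 was without those replicates, at -0.46, adjusted p = 0.0212), nor were the remaining 2 genes in either pool.

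Of 10 other nucleotide kinases, 3 fell on polysomes, and in the cytosol 2 fell and 1 rose. CMPK1, which phosphorylates CMP, UMP and dCMP, fell in both pools. It fell by 0.44 ± 0.13 on polysomes and fell by 0.62 ± 0.13 in the cytosol (adjusted p = 0.0237 and 0.00208). AK1, an adenylate kinase, fell by 0.74 ± 0.17 on polysomes and fell by 0.54 ± 0.17 in the cytosol (adjusted p = 0.00495 and 0.0335). NME4, a mitochondrial nucleoside diphosphate kinase, fell by 0.76 ± 0.17 on polysomes (adjusted p = 0.0035), and its relative NME3 rose in the cytosol by 0.75 ± 0.16 (adjusted p = 0.00347). Without the cytosolic PP242 replicates 2 and 4, NME3 was not called there, at 0.37 (adjusted p = 0.0636).

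Among 10 genes of breakdown and pool cleaning, 1 rose and 3 fell on polysomes, and 3 rose and 2 fell in the cytosol. UPP1, the uridine phosphorylase, moved opposite to most of the 9 enzymes. Its polysome signal was 9.12, 8.96, 9.28 and 9.20 with PP242, against 7.77, 7.53, 7.75 and 7.88 with vehicle. The cytosolic signal was 8.27, 8.77, 8.47 and 9.21 with PP242, against 6.87, 7.09, 7.41 and 7.20 with vehicle. It rose by 1.41 ± 0.17 (adjusted p = 1.12e-05) on polysomes and by 1.54 ± 0.17 (adjusted p = 3.89e-06) in the cytosol. NUDT1, which removes oxidized purine nucleotides, fell by 1.04 ± 0.18 on polysomes (adjusted p = 0.000512) and fell by 0.78 ± 0.18 in the cytosol (adjusted p = 0.00508). DCTPP1, a pyrophosphatase of dCTP and its modified forms, fell by 0.88 ± 0.14 on polysomes (adjusted p = 0.000265) and fell by 0.66 ± 0.14 in the cytosol (adjusted p = 0.00306). NT5C, a deoxyribonucleotidase, rose in the cytosol by 0.69 ± 0.16 (adjusted p = 0.00501), but by 0.34 and not called (adjusted p = 0.103) without the cytosolic PP242 replicates 2 and 4.

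Of 5 nucleoside carriers, SLC29A3, a carrier of lysosomes and other inner membranes, rose by 0.73 ± 0.12 on polysomes and 0.70 ± 0.12 in the cytosol (adjusted p = 0.000285 and 0.000398). SLC29A1, the main nucleoside carrier of the cell surface, fell by 0.65 ± 0.17 on polysomes (adjusted p = 0.013), with -0.26 ± 0.17 in the cytosol, or -0.53 (adjusted p = 0.0622) there without the cytosolic PP242 replicates 2 and 4. SLC29A2, its relative, rose in the cytosol by 0.51 ± 0.17 (adjusted p = 0.0494), and was not called without the same replicates (0.31, adjusted p = 0.39). SLC25A33, a mitochondrial pyrimidine nucleotide carrier, fell by 0.44 ± 0.14 there (adjusted p = 0.0385).

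**Figure D5:**
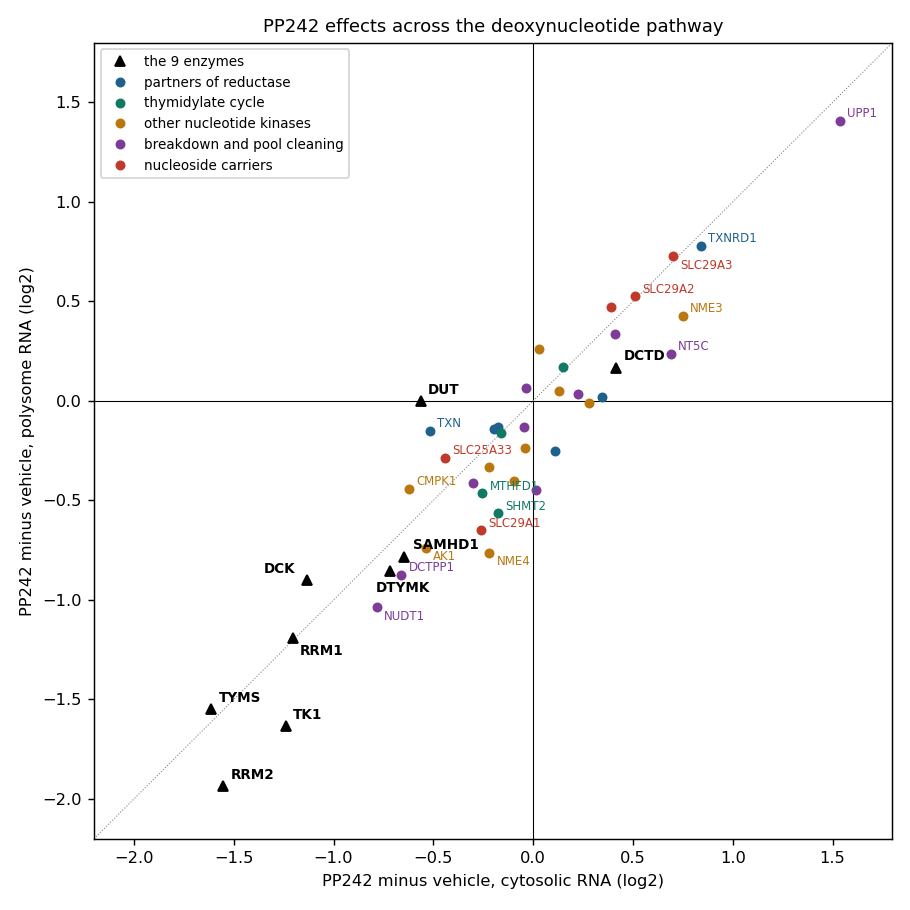
Effect of PP242 (log2, PP242 minus vehicle) in polysome RNA against the effect in cytosolic RNA for the 9 enzymes (black triangles) and 35 further pathway genes in 5 lists (coloured points). The dotted line marks equal effects; RRM2, TYMS and TK1 lie at the lower left and UPP1 at the upper right.

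The enzymes also differed in which genes they resembled over the 16 arrays. Once the mean of its pool was taken from each array, every enzyme was correlated (Pearson) with 12341 genes with a mean above 5. This is a description, in which the difference between PP242 and vehicle arrays carries much of the value. RRM1 was nearest to FANCI (r = 0.997), TIMELESS and DSN1, and RRM2 to HSPA14 (r = 0.994), CDC6 and CDC45. For TYMS the nearest were DNAJC9 (r = 0.991), BUB1 and RAD51AP1. DTYMK and TK1 were both nearest to MCM3 (r = 0.991 and 0.992), followed by MCM2 and FEN1 for DTYMK and by CPSF3 and RAD54B for TK1. DCK was nearest to SEC23IP (r = 0.975), TMPO and PTGES3, and SAMHD1 to SDC1 (r = 0.970), ORC1 and CORO1C. DUT and DCTD had their nearest genes at lower values, NUCKS1 for DUT (r = 0.931, then PRDM16 and DENND5B) and JAGN1 for DCTD (r = 0.914, then TSPAN14 and RBKS). Among the members themselves, RRM2 correlated with TK1 at 0.984 and with DTYMK at 0.980, but with DUT at 0.476 and with DCTD at -0.580. Deviations from the mean of each group remove the mean effect of the treatment. On these RRM2 correlated with TK1 at 0.869, with DTYMK at 0.937, with DUT at -0.856 and with DCTD at 0.338. They still hold shifts shared by arrays of the same replicate number and the wide spread of the cytosolic PP242 arrays. The part of these in the values was not tested.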

How the data were processed

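The deposited values are log2 signals per probe set, made by the authors with RMA per the submitters' processing notes. Those notes state no version. Quantiles of cytosolic and polysome arrays differ, and effects were therefore taken within pools. Probe sets with 1 gene in the array's gene table were kept (41091 of 54613), and the brightest by mean stood for each of 19777 genes. limma 3.58.1 in R 4.3.3 fitted 1 mean per group to the deposited values (for polysome over cytosolic levels, to arrays centred on their medians), eBayes with an intensity trend and Benjamini-Hochberg adjustment over all genes; ± is the SE of a contrast unless SD is named. The steps were tested on simulated data. Pair tests used scipy 1.17.1 in Python 3.11.15. Members, lists and tests were chosen with earlier results of these data known. Named genes are the 9 enzymes, RRM2B, up to 4 called genes per pathway list by smallest p, and the 3 nearest genes of each enzyme. Same-numbered arrays of compared groups deviated from their group means together in 16 of 16 pairs (r = 0.164 to 0.510). From this check and not from the labels, numbers were taken as pairs in the replicate block, the regression and the sign flips. The main fits and the main pair tests left this pairing out. Alternatives covered probe sets, scaling, trend, dim genes, block, weights and left-out arrays. The number of arrays limits precision. A planned pair comparison is not reported here, and a planned search of protein sequences was not run.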

Additional observations from a re-analysis of the deposited data

Results flagged for a closer look

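In each group of 4 arrays the highest or lowest array of each enzyme was set against the others, 36 groups in all, and chance flags about 1 in 20 groups. For DCTD in polysome RNA of PP242-treated cells, replicate 4 read 8.29, above 8.03, 8.01 and 7.99. The gap to its nearest neighbour was 0.867 of the group's range, past Dixon's critical value for 4 samples. Replicate 4 was also the highest of the vehicle arrays in that pool, at 8.20, and the polysome effect of DCTD was not called.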

How the results depend on the processing

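The 9 enzymes kept their calls in polysome and cytosolic RNA under quantile and cyclic loess normalization, no variance trend, a filter on dim genes and the replicate block; other changed calls stand with DUT, DCTD and DTYMK above. From replicate numbers 3 and 4 alone, with 2 arrays a group, 5 of 9 enzymes were called in each pool, with DCK (adjusted p = 0.185) and SAMHD1 (0.0505) lost on polysomes and DUT, DCTD, DTYMK and SAMHD1 in the cytosol, and of the pathway genes 4 (polysome) and 3 (cytosol). Over all genes, numbers 3 and 4 alone called 1088 in polysome RNA and 1058 in cytosolic RNA. The polysome count of pathway genes, 12, was 19 with the replicate block and 6 to 10 with a replicate number left out, lowest without number 2. The polysome count of all genes, 2642, was 4019 with the block and 1626 to 1889 with a number left out, also lowest without number 2. The cytosolic count of pathway genes, 13, was 8 in a fit of the 8 cytosolic arrays and 7 to 10 with a number left out, lowest without number 2 or 4. The cytosolic count of all genes, 3253, was 2069 in the fit of 8 arrays, 1543 without number 2 and 1604 without number 4. It was 2346 without number 1 and 3319 without number 3. The pair tests called 7 of 12, and 0 with the replicate block, without cytosolic PP242 replicates 2 and 4, and with each replicate number left out, where an exact test of 3 against 3 cannot go below p = 0.1. With the mean of each gene's probe sets 1 further difference was called, that of TYMS and TK1 on polysomes. The replicate block changed no enzyme call within a pool, and TK1 loading with PP242 was called with it (adjusted p = 0.0268) and without cytosolic PP242 replicates 2 and 4 (0.63, adjusted p = 0.00772), where RRM2 loading was 0.68. Loading in vehicle-treated cells called 7 enzymes, and 3 after quantile and 3 after loess normalization over all arrays. Of the 19777 genes it called 10348, and 8765 after quantile and 9059 after loess normalization. Quantile and loess normalization gave RRM2 loading with PP242 of -0.12 and -0.20, and DUT loading with vehicle of -0.12 and -0.15, against the positive values above. The mean of probe sets gave SAMHD1 0.21 with PP242. The cause of these differences was not tested. Single probe sets were an alternative added after the data were seen. Called loading values of the opposite sign to the brightest set stood with PP242 for DUT (-0.44), RRM1 (-0.67), TYMS (-0.59) and SAMHD1 (0.97 and 0.51). With vehicle they stood for DCTD (0.42), DUT (-0.48), RRM1 (-0.67), SAMHD1 (-0.57) and TYMS (-0.89). SAMHD1 loading was not called with its brightest set in either treatment, so no called value was reversed. Both TYMS values came from a set with a mean of 3.59. The other TYMS set above 5 gave -0.21 with PP242 and 0.17 with vehicle, neither called. The polysome effect of DTYMK reversed at 0.75, in the set with a mean of 3.24. Signal over background limits what dim probe sets show.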
